A study of Mus musculus with 18 samples.

Results

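The genes described here encode the machinery of MHC class II antigen presentation in the mouse. They are *H2-Aa*, *H2-Ab1*, *H2-Eb1*, *H2-DMa*, *H2-DMb1*, *H2-DMb2*, *H2-Oa*, *H2-Ob*, *Cd74* and *Ciita*, 10 of the 49585 genes in the count table. They were chosen by name, for their place in the pathway, and each was read across all 18 libraries. Bulk RNA-Seq was performed on sorted CD45+ leukocytes from Kaede mice, which carry a protein that light converts from green to red, so that cells labelled in a tissue can be found again after they have moved to the draining lymph node (LN). Inflammation followed transfer of OT-II CD4+ T cells polarized to Th1 in culture, immunization with ovalbumin (OVA) in complete Freund's adjuvant, and challenge with heat-aggregated OVA in the footpad (joint) or the ear pinna (skin).

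The 18 libraries fall into 6 groups of 3. Joint nonmigrated and skin nonmigrated cells are Kaede red cells still in the inflamed tissue the day after photoconversion. Joint migrated and skin migrated cells are Kaede red cells recovered at the same time from the LNs draining those tissues. Joint steady-state and skin steady-state cells are labelled as cells that reached the LN from uninflamed tissue. The titles of the first of these carry "PBS_KG" and of the second "Naive", and the sources used here do not define "KG". The study's methods describe challenge with PBS in place of aggregated OVA at either site, but do not tie it, or a sort, to these libraries. Each inflamed library is a pool of age-matched male and female mice, so *P* values measure the spread between pools. All samples were mixed leukocytes, and in such samples fewer class II–positive cells and less class II RNA per cell cannot be told apart.

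MHC class II molecules are heterodimers of an alpha and a beta chain that show peptides from ingested protein to CD4+ T cells. In mice *H2-Aa* and *H2-Ab1* encode the chains of I-A, and *H2-Eb1* encodes the beta chain of I-E. New heterodimers bind the invariant chain, the product of *Cd74*, which is cut down by proteases in endosomes until only a short peptide stays in the groove. H2-DM, made from the *H2-DMa* product and a beta chain from *H2-DMb1* or *H2-DMb2*, exchanges that peptide for others. H2-DO, made from the *H2-Oa* and *H2-Ob* products and best known in B cells, holds H2-DM in check. *Ciita* encodes the class II transactivator, which switches on class II genes in dendritic cells, macrophages, B cells and IFN-γ–treated cells.

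The H2 members lie in the same region of the MHC on chromosome 17 of mm10. It runs from position 34092340, where *H2-Oa* begins, to position 34316674, where *H2-Eb1* ends. Along the chromosome the order is *H2-Oa* (ENSMUSG00000024334), *H2-DMa* (ENSMUSG00000037649), *H2-DMb2* (ENSMUSG00000037548), *H2-DMb1* (ENSMUSG00000079547), *H2-Ob* (ENSMUSG00000041538), *H2-Ab1* (ENSMUSG00000073421), *H2-Aa* (ENSMUSG00000036594) and *H2-Eb1* (ENSMUSG00000060586). *Ciita* (ENSMUSG00000022504) is on chromosome 16, and *Cd74* (ENSMUSG00000024610) is also outside the MHC. All 10 are protein-coding genes.

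Class II promoters are known for a shared array of short elements, the X and Y boxes, on which the RFX complex, CREB and NF-Y assemble and recruit the transactivator. RefSeq promoter windows on GRCm38.p6, running from 250 bases before to 50 bases after an annotated start, were held for 7 members. *H2-Ab1*, *Cd74* and *Ciita* had no entry. The Y core ATTGG, searched on both strands, was in the windows of all 7 members and in 37.41% of 32851 mouse windows. The X1 core GCAAC was in those of 5 members and in 35.21% of windows, and the X2 core TGACG in that of *H2-Aa* alone and in 20.81% of windows. A member was counted where any of its windows held the core, whereas the shares are over single windows. *H2-DMa* had windows at different starts, and its X1 and Y cores were in different windows. An X1 core followed within 10 to 40 bases by a Y core on the same strand was in the windows of 4 members and in 1.43% of all windows. These 4 stretches of 70 bases run 5′ to 3′ on the strand of the gene, with the X1 and Y cores in capitals. They are shown because genes whose RNA moved in opposite directions held the same pair of cores.
H2-Aa: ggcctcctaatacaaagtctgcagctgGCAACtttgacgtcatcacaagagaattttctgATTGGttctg
H2-Eb1: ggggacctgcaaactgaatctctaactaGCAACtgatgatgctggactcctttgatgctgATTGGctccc
H2-Oa: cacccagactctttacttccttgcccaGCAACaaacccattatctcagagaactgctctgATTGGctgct
H2-Ob: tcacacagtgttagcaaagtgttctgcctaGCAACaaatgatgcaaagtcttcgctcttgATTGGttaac

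The *H2-Aa* stretch is at chr17:34287862-34287931 on the minus strand. Those of *H2-Eb1* (chr17:34305748-34305817), *H2-Oa* (chr17:34092276-34092345) and *H2-Ob* (chr17:34238788-34238857) are on the plus strand. In them 28 bases separate the X1 core from the Y core in *H2-Aa* and *H2-Oa*, 27 in *H2-Eb1* and 25 in *H2-Ob*. A match of letters is a description of the window and does not show that a factor binds there.

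Depth ran from 19239531 to 43814403 counts assigned to genes per library (median 37520604), with 19239531 to 22528895 in the 6 inflamed skin libraries. These 6 were the shallowest, and their count columns are named in another style than all others. Their unfeatured reads were 0.105% to 0.153% of assigned counts, against 0.261% or more in every other library. Whether they were prepared or sequenced apart is not stated. Such a difference cannot be told apart from site between inflamed joint and skin cells. Nor can it be told apart from inflammation between skin migrated and skin steady-state cells. Values below are counts relative to library size (CPM) after trimmed mean of M values (TMM) scaling over the 18 libraries. *Ptprc*, which encodes CD45, the antigen used for the sort, was at 1134 to 2564 CPM in every library. Libraries of 2 groups stood apart from the others of their group. Skin nonmigrated replicate 3 held 6684 CPM summed over 8 macrophage genes, against 2787 and 1519 CPM in the other two. Joint migrated replicate 1 held 2980 CPM summed over 7 migratory dendritic cell genes, against 6560 and 7737 CPM, and had the lowest *H2-Aa* and *Cd74* and the highest *H2-DMb2*, *H2-Oa* and *H2-Ob* of its group. Results that rest on the first are given with and without it, and leaving out the second changed no member's call in any comparison.

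Across the 6 groups the members formed sets with opposite patterns. *H2-Aa*, *H2-Ab1*, *H2-Eb1*, *Cd74*, *H2-DMa* and *H2-DMb1* had their highest means in joint nonmigrated cells and their next highest in skin nonmigrated cells. *H2-DMb2*, *H2-Oa* and *H2-Ob* had their highest means in the steady-state LNs, intermediate means in migrated cells and their lowest in both nonmigrated groups. *Ciita* was highest in the steady-state LNs and nearly level over the 4 inflamed groups, with overlapping ranges for each neighbouring pair. The plot of each member by library shows these patterns.

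**Figure D1:**
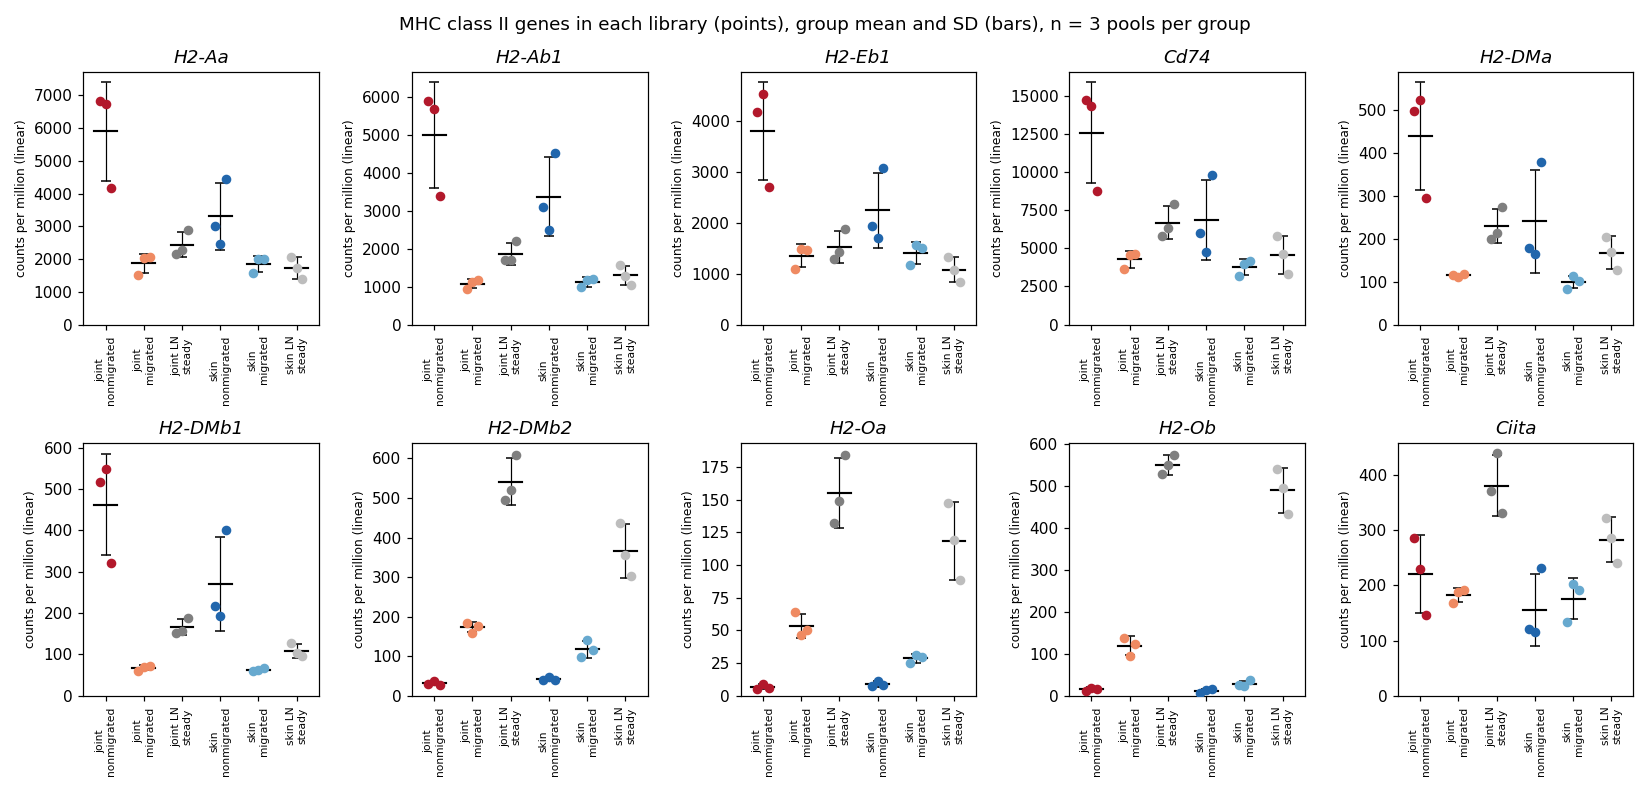
CPM (linear y axes) of the 10 members in each library (points), with group mean (horizontal bar) and SD (error bar), n = 3 pools per group on the x axes. *H2-Aa*, *H2-Ab1*, *H2-Eb1*, *Cd74*, *H2-DMa* and *H2-DMb1* have their highest means in nonmigrated cells, whereas *H2-DMb2*, *H2-Oa* and *H2-Ob* have theirs in steady-state LNs.

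Per kilobase of the longest coding transcript, *Cd74* had the highest mean of the members in all 6 groups, from 2672 CPM per kb in skin migrated to 8931 in joint nonmigrated cells. *H2-Aa*, *H2-Ab1* and *H2-Eb1* followed in that order in each group, at 5231, 4128 and 2278 CPM per kb in joint nonmigrated cells. The accessory genes were lower, and their order changed between groups. In joint nonmigrated cells *H2-DMb1* (329.6 CPM per kb) and *H2-DMa* (219.2) stood above *H2-DMb2* (21.5), *H2-Oa* (6.28) and *H2-Ob* (6.16). In the joint steady-state LN *H2-DMb2* (365.3 CPM per kb), *H2-Ob* (205.9) and *H2-Oa* (142.6) stood above *H2-DMb1* (118.1) and *H2-DMa* (114.6). The order of *H2-Aa*, *H2-Ab1* and *H2-Eb1* depended on the length used: over the union of annotated exons, *H2-Eb1* (1956 CPM per kb) was above *H2-Ab1* (1948) and *H2-Aa* (1554) in joint nonmigrated cells.

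The 10 members together took 2.46% ± 0.58 (SD, n = 3) of assigned counts in joint nonmigrated cells and 0.956% ± 0.10 in joint migrated cells. In the skin the shares were 1.53% ± 0.51 in nonmigrated and 0.890% ± 0.11 in migrated cells. In the steady-state LNs they were 1.54% ± 0.18 for the joint and 1.12% ± 0.25 for the skin. Because *Cd74*, *H2-Aa*, *H2-Ab1* and *H2-Eb1* make up most of these counts, the shares follow those genes and not the H2-DO genes.

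The first question of the design is how cells that left the inflamed joint differ from those that stayed. Of the 10 members, 6 fell, 3 rose and 1, *Ciita*, did not pass the test (edgeR quasi-likelihood test, Benjamini-Hochberg adjusted *P* under 0.05 and absolute log2 fold change above 1). Of all 16777 genes tested, 34.3% were called in this comparison. The median log2 fold change was -1.59 for the members and 0.018 for all genes tested. Joint migrated and nonmigrated libraries did not overlap for 9 members, all but *Ciita*, and for 65.8% of all genes tested. The counts of 6 and 3 stayed the same when each library was left out in turn.

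RNA of the I-A chain genes *H2-Aa* and *H2-Ab1* and of the I-E beta chain gene *H2-Eb1* was lower in joint migrated cells. *H2-Aa* was at 6822, 6725 and 4156 CPM in the joint nonmigrated and 1526, 2020 and 2051 CPM in the joint migrated libraries. The groups did not overlap, and *H2-Aa* fell by 1.72 on the log2 scale (SE 0.245, edgeR adjusted *P* = 0.000116), a 3.3-fold difference. *H2-Ab1* was at 5915, 5704 and 3390 CPM in nonmigrated and 942.0, 1126 and 1185 CPM in migrated cells, a 4.81-fold difference (SE 0.246, edgeR adjusted *P* = 1.59e-05). *H2-Eb1* ran from 2705 to 4529 CPM in nonmigrated and from 1093 to 1488 CPM in migrated cells, a 2.93-fold difference (edgeR adjusted *P* = 0.000277).

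*Cd74* showed the same direction at a higher level. It was at 14710, 14330 and 8745 CPM in joint nonmigrated and 3640, 4570 and 4615 CPM in joint migrated cells. Every nonmigrated library was above every migrated one, and *Cd74* fell by 1.62 on the log2 scale (SE 0.270, edgeR adjusted *P* = 0.000362). In all of these genes replicate 3 was the lowest of the joint nonmigrated libraries. That library also had the most neutrophil RNA of the group (20470 CPM summed over 9 genes, against 6698 and 13010) and the least macrophage RNA (6213 CPM over 8 genes, against 8620 and 9619); the part of these cells in the class II values was not tested.

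The genes for the alternative H2-DM beta chains moved in opposite directions. *H2-DMb1* was at 516.9, 548.7 and 322.5 CPM in joint nonmigrated and 60.7, 70.3 and 72.5 CPM in joint migrated cells. It fell by 2.83 on the log2 scale (SE 0.266, edgeR adjusted *P* = 5.68e-06), 7.11-fold. *H2-DMb2* was at 30.0, 38.0 and 27.5 CPM in nonmigrated and 183.6, 158.6 and 176.7 CPM in migrated cells. It rose 5.2-fold, by 2.38 on the log2 scale (SE 0.157, edgeR adjusted *P* = 6.06e-07), with no overlap. *H2-DMa*, which encodes the alpha chain paired with either, was at 499.4, 524.6 and 294.3 CPM in nonmigrated and 116.5, 111.3 and 116.9 CPM in migrated cells, 3.99-fold lower (SE 0.296, edgeR adjusted *P* = 0.000155).

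The *H2-DMb1* and *H2-DMb2* transcripts are 95.5% identical over 1058 aligned bases and share an identical run of 221 bases, longer than the 100-base reads. Read pairs that lie wholly within such a run cannot be placed uniquely, and the default counting leaves them out. The level of each gene is therefore uncertain. *H2-DMa* shares exon sequence with *Brd2* on the opposite strand, and the strand setting of the counting is given only as the default. *H2-Oa* and *Ciita* likewise overlap genes on the opposite strand, *BC051537* and *Dexi*, and *Cd74* holds the microRNA gene *Mir5107*.

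The H2-DO genes rose. *H2-Oa* was at 5.38, 9.07 and 6.05 CPM in joint nonmigrated and 63.8, 46.6 and 49.9 CPM in joint migrated cells, 7.48-fold higher (log2 fold change 2.90, SE 0.231, edgeR adjusted *P* = 1.96e-06). *H2-Ob* was at 12.5, 19.5 and 17.3 CPM in nonmigrated and 137.8, 94.3 and 124.4 CPM in migrated cells, 6.9-fold higher (log2 fold change 2.79, SE 0.274, edgeR adjusted *P* = 7.75e-06). For both genes the lowest migrated library was above the highest nonmigrated one.

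*Ciita* was at 285.8, 229.6 and 145.3 CPM in joint nonmigrated and 168.6, 187.4 and 190.9 CPM in joint migrated cells. The groups overlapped, with a log2 difference of -0.33 (95% interval -0.94 to 0.27, edgeR adjusted *P* = 0.33). As a percentage of *Cd74* counts, *Ciita* was 1.74% ± 0.18 (SD, n = 3) in joint nonmigrated and 4.29% ± 0.30 in joint migrated cells.

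Markers of other cell types moved with these genes. All 8 B cell genes listed rose in joint migrated cells, and none was at the floor of 3 counts. Their summed level was 116.6 to 281.4 CPM in joint nonmigrated and 870.9 to 1220 CPM in joint migrated cells. All 8 macrophage genes listed fell, from a summed 6213 to 9619 CPM to 41.1 to 114.1 CPM. Of 7 migratory dendritic cell genes, 5 rose, *Ccl17* fell and *Il4i1* was not tested, and their sum went from 145.4 to 196.3 CPM to 2980 to 7737 CPM. All 6 T cell genes listed rose, with a median log2 fold change of 2.95. Of 6 conventional dendritic cell genes, *Flt3* (3.30) and *Zbtb46* (3.66) rose, *Itgax* (-1.29) fell and 3 were not called. They summed to 201.1 to 300.4 CPM in nonmigrated and 286.3 to 558.7 CPM in migrated cells, and neutrophil genes, all 9 of which fell, to 6698 to 20470 CPM and 41.0 to 95.1 CPM. The part of each cell type in the class II values was not tested.

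The same comparison was made in the skin, with inflammation induced by the same protocol in the ear. Here 3 members fell (*H2-Ab1*, *H2-DMa* and *H2-DMb1*), 3 rose (*H2-DMb2*, *H2-Oa* and *H2-Ob*) and 4 were not called. Of all genes tested, 35.4% were called. The median log2 fold change was -0.87 for the members and 0.009 for all genes tested. Migrated and nonmigrated libraries again did not overlap for the 9 members other than *Ciita*, and for 62.1% of all genes tested. The plot of the change at both sites shows each member with its interval.

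**Figure D2:**
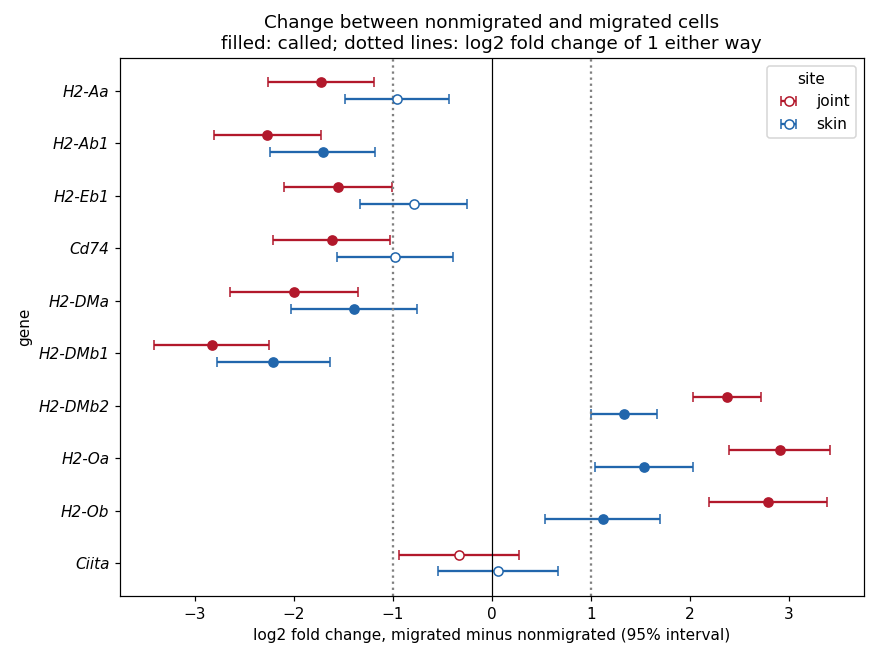
Log2 fold change of each member between migrated and nonmigrated cells (x axis; points with 95% intervals) in the joint (red) and the skin (blue). Filled points passed the test. At both sites *H2-DMb2*, *H2-Oa* and *H2-Ob* lie to the right of 0. The *H2-Aa*, *H2-Ab1*, *H2-Eb1*, *Cd74*, *H2-DMa* and *H2-DMb1* points lie to the left.

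*H2-Ab1* was at 3098, 2510 and 4532 CPM in skin nonmigrated and 978.7, 1172 and 1210 CPM in skin migrated cells, 3.27-fold lower (SE 0.242, edgeR adjusted *P* = 0.000111). *H2-Aa* was at 3016, 2458 and 4445 CPM in nonmigrated and 1566, 1994 and 1988 CPM in migrated cells. These groups did not overlap either, and the log2 difference was -0.95 (95% interval -1.48 to -0.43, edgeR adjusted *P* = 0.00524), within the fold limit. The differences for *Cd74* (-0.98, 95% interval -1.56 to -0.39, edgeR adjusted *P* = 0.00813) and *H2-Eb1* (-0.79, 95% interval -1.33 to -0.25, edgeR adjusted *P* = 0.0163) also missed only that limit. Both *H2-Aa* and *Cd74* were called when skin nonmigrated replicate 1 or 2, or skin migrated replicate 2 or 3, was left out, which gave 5 members lower. Neither was called without skin nonmigrated replicate 3. With 1 library left out in turn, *H2-Aa* ran from -1.119 to -0.691, *Cd74* from -1.176 to -0.635 and *H2-Eb1* from -0.943 to -0.500.

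*Cd74* in the skin was at 5998, 4733 and 9818 CPM in nonmigrated and 3177, 3972 and 4154 CPM in migrated cells. Skin nonmigrated replicate 3 was the highest of its group for this gene and for *H2-Aa*, *H2-Ab1*, *H2-Eb1*, *H2-DMa*, *H2-DMb1* and *Ciita*. It was also the library with the most macrophage RNA, and the part of those cells in its values was not tested.

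*H2-DMb1* was at 218.4, 192.1 and 401.8 CPM in skin nonmigrated and 60.3, 62.4 and 67.3 CPM in skin migrated cells, 4.62-fold lower (edgeR adjusted *P* = 2.98e-05). *H2-DMb2* moved the other way, from 40, 48.3 and 41.1 CPM to 97.5, 140.2 and 116.4 CPM, 2.52-fold higher (edgeR adjusted *P* = 2.37e-05). *H2-DMa* fell 2.62-fold (edgeR adjusted *P* = 0.00167), from 165.1 to 379.2 CPM in nonmigrated to 83.1 to 112.8 CPM in migrated cells. Without skin nonmigrated replicate 3 the *H2-DMa* difference was -0.92 on the log2 scale and no longer called, which left 2 members lower. At an adjusted *P* under 0.001 the calls of *H2-DMa* and *H2-Ob* in the skin would both be lost, leaving 2 members lower and 2 higher.

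*H2-Oa* was at 7.52, 11.5 and 8.21 CPM in skin nonmigrated and 25.0, 31.1 and 29.8 CPM in skin migrated cells, 2.9-fold higher (log2 fold change 1.54, SE 0.224, edgeR adjusted *P* = 0.000138). *H2-Ob* was at 7.68, 13.4 and 15.7 CPM in nonmigrated and 25.6, 24.4 and 36.8 CPM in migrated cells, 2.17-fold higher (log2 fold change 1.12, SE 0.267, edgeR adjusted *P* = 0.00381). The call for *H2-Ob* was lost without skin nonmigrated replicate 1 (log2 fold change 0.88) or skin migrated replicate 3 (0.90). *Ciita* overlapped, at 116.2 to 230.4 CPM in nonmigrated and 133.4 to 203.0 CPM in migrated cells (log2 difference 0.06, 95% interval -0.54 to 0.67).

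In the skin, too, all 8 B cell genes rose, from a summed 11.96 to 18.2 CPM to 137.5 to 252.8 CPM, and all 8 macrophage genes fell, from 1519 to 6684 CPM to 76.1 to 160.2 CPM. Migratory dendritic cell genes summed to 410.2 to 1694 CPM in nonmigrated and 5546 to 8098 CPM in migrated cells. Of 6 T cell genes 4 rose and none fell, and of 6 conventional dendritic cell genes 2 rose and 4 fell. Keratinocyte genes were present in skin nonmigrated libraries (21.6 to 246.8 CPM over 3 genes) and at or below 2.3 CPM in every other library. The part of these cells in the class II values was not tested.

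The opposite changes of the beta chain genes can be given as a share of their RNA. *H2-DMb2* made up 6.61% ± 1.19 (SD, n = 3) of the counts of both beta chain genes in joint nonmigrated cells and 71.8% ± 3.0 in joint migrated cells. In the skin the share was 14.9% ± 5.4 in nonmigrated and 64.8% ± 3.9 in migrated cells. In the steady-state LNs it was 76.6% ± 0.21 (joint) and 77.0% ± 0.87 (skin). Migrated and nonmigrated libraries did not overlap at either site, and an exact two-sided permutation test of 3 against 3 gave *P* = 0.1, the smallest it can give. In skin nonmigrated cells the share was lowest in replicate 3 (9.27%, against 15.5% and 20.1%).

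The ratio of *H2-Oa* RNA to *H2-DMa* RNA shifted as well. Per kilobase of transcript, *H2-Oa* was 0.030 ± 0.009 (SD, n = 3) times *H2-DMa* in joint nonmigrated and 0.856 ± 0.13 times in joint migrated cells. In the skin the ratios were 0.082 ± 0.044 and 0.533 ± 0.023, and in the steady-state LNs 1.25 ± 0.036 (joint) and 1.30 ± 0.029 (skin). Here also the exact two-sided permutation test gave *P* = 0.1 at each site. A smaller shift was seen between the I-A chain genes. *H2-Ab1* counts were 0.844 ± 0.026 times *H2-Aa* counts in joint nonmigrated and 0.584 ± 0.030 times in joint migrated cells. In the skin they were 1.02 ± 0.004 and 0.607 ± 0.019 times. The part of each cell type in these ratios and in the *H2-DMb2* share was not tested.

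**Figure D3:**
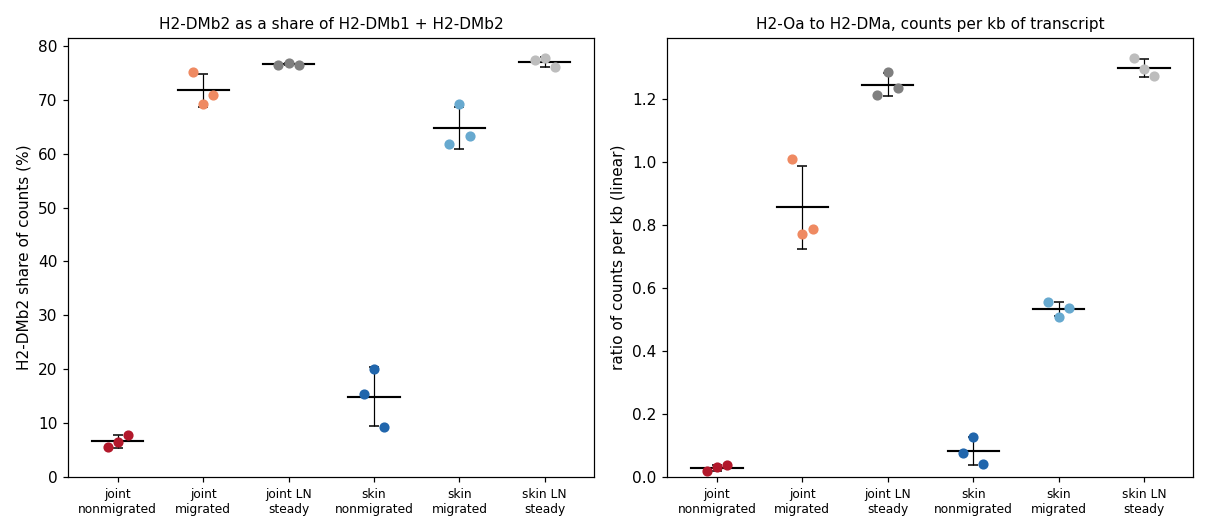
Left, *H2-DMb2* as a percentage of *H2-DMb1* plus *H2-DMb2* counts. Right, ratio of *H2-Oa* to *H2-DMa* counts per kb (both y axes linear), by library (points) with group mean and SD (bars), n = 3 pools per group. Both are low in nonmigrated cells and highest in steady-state LNs, with migrated cells between.

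Site was compared next, within cells that stayed and within cells that left. In both, site cannot be told apart from the lower depth and other column naming of the inflamed skin libraries. Between joint nonmigrated and skin nonmigrated cells no member was called by edgeR or DESeq2, where 14.3% of all genes tested were called by edgeR and 15.9% by DESeq2. At an unadjusted *P* under 0.05 there were 7 members, against 6794 of 16777 genes. The largest differences were those of *Cd74* (0.75 on the log2 scale, 95% interval 0.17 to 1.33, edgeR adjusted *P* = 0.0542) and *H2-DMa* (0.74, 95% interval 0.11 to 1.37, edgeR adjusted *P* = 0.0748), both higher in the joint, and *H2-DMb2* was lower there (-0.57, 95% interval -0.90 to -0.24, edgeR adjusted *P* = 0.0174). The members' median was 0.54, against 0.011 for all genes tested. In the same comparison 7 of 8 B cell genes and 7 of 9 neutrophil genes were higher in the joint, 5 of 6 migratory dendritic cell genes and 5 of 6 T cell genes were lower there, and none of 8 macrophage genes was called (median 1.25). Their part in the members' differences was not tested. Without skin nonmigrated replicate 3, *Cd74* (1.09), *H2-DMa* (1.22) and *H2-DMb1* (1.03) were called higher in the joint.

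Between joint migrated and skin migrated cells, *H2-Ob* was the only member called. It was at 94.3 to 137.8 CPM in joint migrated and 24.4 to 36.8 CPM in skin migrated cells, 3.9-fold higher (log2 fold change 1.96, SE 0.266, edgeR adjusted *P* = 0.00601). Of all genes tested, 1.14% were called, with 0.56% of all genes higher in the joint, and the median was 0.068 for the members and -0.002 for all genes tested. *H2-Oa* differed by 0.83 (95% interval 0.36 to 1.30, edgeR adjusted *P* = 0.0836) and *H2-DMb2* by 0.48 (0.15 to 0.81). For *H2-Aa* (-0.06, 95% interval -0.58 to 0.46), *Cd74* (0.11, -0.47 to 0.69) and *Ciita* (-0.02, -0.63 to 0.58) the intervals spanned 0. Of the 8 B cell genes, 7 were also higher in joint migrated cells, and the summed level was 870.9 to 1220 CPM against 137.5 to 252.8 CPM in skin migrated cells; the part of B cells in the *H2-Ob* difference was not tested.

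Whether the change on leaving the tissue differed between sites was tested as an interaction. *H2-DMb2*, *H2-Oa* and *H2-Ob* rose more in the joint, by 1.05 (SE 0.213, edgeR adjusted *P* = 0.0137), 1.37 (SE 0.310, edgeR adjusted *P* = 0.0225) and 1.67 (SE 0.371, edgeR adjusted *P* = 0.0209) on the log2 scale. Of all genes tested, 6.13% were called, and 3.96% were called more positive in the joint. At an adjusted *P* under 0.001 no member was called, and 0.119% of all genes were. None of the 3 was called without skin nonmigrated replicate 2 or without skin migrated replicate 1. *H2-Ob* alone also lost its call without skin migrated replicate 2 (1.56), and *H2-DMb2* without joint nonmigrated replicate 1 (0.995) or 3 (0.963). For the same difference 4 of 6 migratory dendritic cell genes (median 2.37) and 3 of 6 conventional dendritic cell genes (median 1.84) were called more positive in the joint, and 3 of 8 B cell genes (median -1.61) less positive. The part of these cells was not tested. The other 7 members had differences of -0.77 to -0.39, none called. Without skin nonmigrated replicate 3, *H2-Aa* (-1.03), *H2-Eb1* (-1.05), *H2-DMa* (-1.08) and *H2-DMb1* (-1.01) fell more in the joint.

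Migrated cells from inflamed tissue were then set against the steady-state LN cells, a comparison that reuses the migrated libraries above. For the joint, 6 members were lower in inflamed migrated cells and none was higher, where 24.2% of 17107 genes tested were called and 7.31% were lower. The members' median log2 fold change was -1.04, against -0.022 for all genes tested. *H2-Ob* differed most, at 526.6, 549.4 and 573.0 CPM in the steady state and 94.3 to 137.8 CPM in inflamed migrated cells, a fall of 2.22 on the log2 scale (SE 0.165, edgeR adjusted *P* = 1.9e-07).

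*H2-DMb2* was at 494.2, 521.5 and 609.7 CPM in the joint steady-state LN and fell 3.15-fold (edgeR adjusted *P* = 1.27e-06). *H2-Oa*, at 132.2, 149.0 and 184.2 CPM in the steady state, fell 2.92-fold (edgeR adjusted *P* = 1.12e-05). *H2-DMb1* fell 2.46-fold and *H2-DMa* 2.01-fold (log2 fold changes of -1.30 and -1.01). *Ciita* fell 2.1-fold, from 370.5, 439.7 and 330.0 CPM (log2 fold change -1.07, SE 0.156, edgeR adjusted *P* = 8.14e-05). The *Ciita* call was lost without joint steady-state replicate 2 (-0.95), and that of *H2-DMa* without joint migrated replicate 2 (-0.98) or joint steady-state replicate 3 (-0.85). *H2-Aa* (-0.40, 95% interval -0.78 to -0.02), *H2-Eb1* (-0.19), *H2-Ab1* (-0.80) and *Cd74* (-0.65) were not called.

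For the skin, *H2-DMb2*, *H2-Oa* and *H2-Ob* were lower in inflamed migrated cells, and the other 7 members were not called; 36.5% of all genes tested were called and 15.0% were lower, and the median was -0.64 for the members and 0.002 for all genes. *H2-Ob* was at 538.9, 494.9 and 433.1 CPM in the steady state and fell by 4.00 on the log2 scale (SE 0.180, edgeR adjusted *P* = 1.54e-09), 16-fold. *H2-Oa* fell 3.92-fold and *H2-DMb2* 2.94-fold (edgeR adjusted *P* = 8.86e-07 and 1.27e-06). *Cd74* differed by -0.20 (95% interval -0.63 to 0.23) and *H2-Aa* by 0.17 (-0.21 to 0.55). Inflammation here cannot be told apart from the lower depth and other column naming of the skin migrated libraries. The same limit holds for the site difference that follows. The change in *H2-Ob* was 1.78 log2 units less negative in the joint than in the skin (SE 0.228, edgeR adjusted *P* = 0.000426), the only member called for this difference, where 6.11% of all genes tested were called and 2.33% were more positive in the joint.

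No member was called between the steady-state LNs of joint and skin by edgeR or DESeq2, where edgeR called 3.89% and DESeq2 4.65% of all genes tested. At an unadjusted *P* under 0.05 there were 9 members, against 3708 of 17107 genes. All 10 log2 differences were toward the joint, from 0.17 (*H2-Ob*) to 0.61 (*H2-DMb1*, 95% interval 0.35 to 0.87). All 9 neutrophil genes (median 5.78) and 5 of 8 macrophage genes (median 1.94) were also higher in the joint steady-state LN, and their part was not tested.

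B cell genes were far higher in the steady-state LNs than in inflamed migrated cells, at a summed 5026 to 5332 CPM (joint) and 3455 to 4479 CPM (skin), and all 8 were called lower in migrated cells of both sites. Migratory dendritic cell genes were higher in inflamed migrated cells, 5 of 6 for the joint (median 7.47) and 6 of 6 for the skin (median 7.82). Conventional dendritic cell genes were higher for 5 of 6 and 4 of 6, and macrophage genes for 4 of 8 in the joint, with 1 lower, and 8 of 8 in the skin. The part of these cells in the members' differences was not tested. By group mean, *H2-Ob* lay in the same order across groups as the B cell sum. It ran from 7.68 to 15.7 CPM in skin nonmigrated cells up to 526.6 to 573.0 CPM in the joint steady-state LN. In skin nonmigrated cells the B cell sum was 11.96 to 18.2 CPM. Between skin migrated and joint nonmigrated cells *H2-Ob* did not overlap (24.4 to 36.8 and 12.5 to 19.5 CPM), whereas their B cell sums did (137.5 to 252.8 and 116.6 to 281.4 CPM). *Cd74* did not follow the macrophage sum outside the nonmigrated groups, being 5810 to 7930 CPM in the joint steady-state LN with a sum of 59.8 to 108.0 CPM. The plot of *H2-Ob* and *Cd74* beside these sums shows both.

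**Figure D4:**
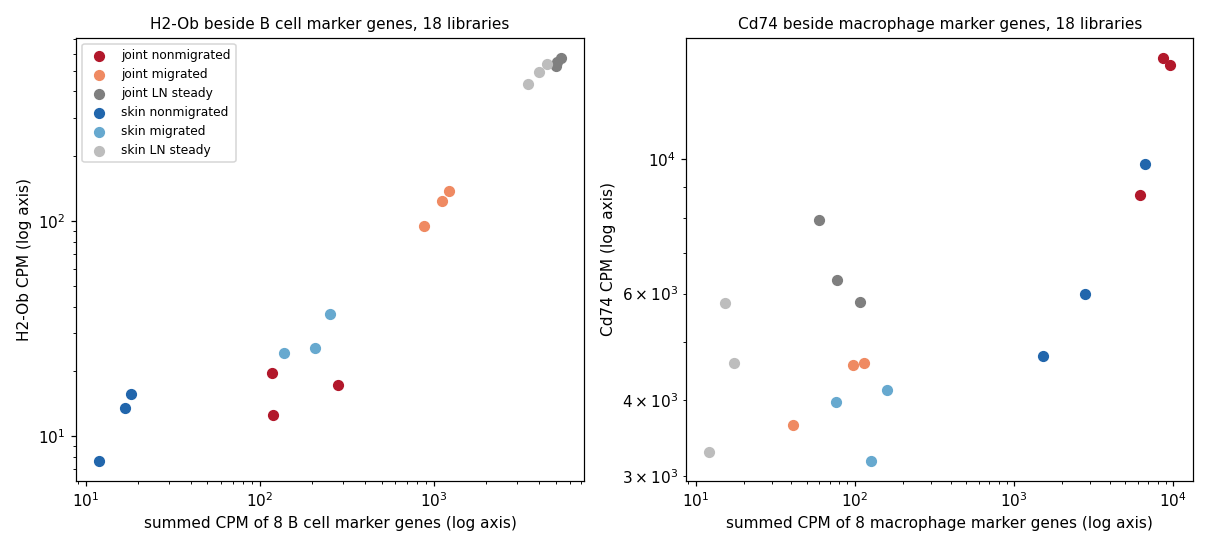
Left, CPM of *H2-Ob* (y axis) beside the summed CPM of 8 B cell genes (x axis). Right, CPM of *Cd74* beside the summed CPM of 8 macrophage genes. All axes are logarithmic, and each point is 1 of 18 libraries, coloured by group. *H2-Ob* is highest in the steady-state LN libraries and lowest in the nonmigrated libraries of both sites, and *Cd74* is highest in joint nonmigrated replicates 1 and 2, followed by skin nonmigrated replicate 3 (9818 CPM) and joint nonmigrated replicate 3 (8745 CPM).

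Genes that act with the members were read from lists by role. Of 11 genes for invariant chain proteases and class II turnover, 9 fell in joint migrated cells and none rose, where 18.4% of all genes tested were called lower. In the skin the same 9 fell, where 19.7% of all genes tested were called lower, and *Cd83*, which protects surface class II from ubiquitination and is named after its values were seen, rose (log2 fold change 1.67, SE 0.362, edgeR adjusted *P* = 0.00204). The list's median log2 fold change was -2.48 in the joint and -2.33 in the skin. The 9 were *Ctss*, *Ctsl*, *Ctsb*, *Ctsd*, *Ctsz*, *Lgmn*, *Sppl2a*, *March1* and *March8*. *Ifi30*, a thiol reductase of endosomes also named after its values were seen, was not called (-0.83 and 0.12).

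*Ctss*, whose product makes the last cuts in the invariant chain in dendritic cells and B cells, was at 5715, 5108 and 3768 CPM in joint nonmigrated and 321.6, 447.4 and 469.2 CPM in joint migrated cells. It fell by 3.62 on the log2 scale in the joint and by 2.71 in the skin (edgeR adjusted *P* = 3.5e-06 and 2.03e-05). *Ctsl*, a related protease, fell by 5.80 in the joint, from 692.9 to 728.7 CPM to 9.21 to 17.6 CPM, and by 6.55 in the skin. *Lgmn*, an asparaginyl endopeptidase, fell by 3.94 and 2.90. In the same comparisons all 8 macrophage genes fell (median -7.00 in the joint and -5.04 in the skin) and all 8 B cell genes rose. The part of each cell type in the values of this list, and of the lists below, was not tested.

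*March1* encodes the ubiquitin ligase that takes class II off the surface of immature dendritic cells and B cells. It was at 113.5, 98.2 and 103.2 CPM in joint nonmigrated and 22.7, 19.3 and 25.6 CPM in joint migrated cells. In the skin it went from 172.8, 118.6 and 220.2 CPM to 9.28, 5.91 and 9.53 CPM. The fall was larger in the skin, by 2.20 on the log2 scale (SE 0.312, edgeR adjusted *P* = 0.00317), and migrated cells of the joint had more *March1* than those of the skin (1.37, SE 0.227, edgeR adjusted *P* = 0.0149). It was also lower in inflamed migrated than in steady-state LN cells (-2.18 for the joint and -3.07 for the skin).

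Of 8 genes for factors that bind class II promoters, 1 rose at each site and none fell, where 16% (joint) and 15.7% (skin) of all genes tested were called higher. *Rfx5*, a subunit of the RFX complex, rose in the joint from 20.3, 18.7 and 18.8 CPM to 49.3, 53.0 and 55.9 CPM (log2 fold change 1.39, SE 0.140, edgeR adjusted *P* = 9.35e-06). In the skin its difference was 0.79 (edgeR adjusted *P* = 0.000536), within the fold limit. *Rfxank*, another RFX subunit, differed by 0.77 and 0.49, and *Creb1*, which encodes CREB, by 0.53 and 0.84. *Nfya*, a subunit of NF-Y named after its values were seen, was the gene that rose in the skin (1.49, SE 0.163, edgeR adjusted *P* = 1.73e-05), and differed by 0.79 in the joint.

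Of 13 genes of the IFN-γ pathway and other regulators upstream of *Ciita*, 3 rose and 2 fell in the joint, and 1 rose and 3 fell in the skin, where 34.3% and 35.4% of all genes tested were called, so that the list's share was near that of all genes. The list's median was 0.17 in the joint and -0.44 in the skin. *Ifngr2*, a chain of the IFN-γ receptor, fell at both sites (-1.35 and -1.01). *Spi1*, which encodes PU.1, also fell at both (-1.92 and -1.40), and *Irf4*, a transcription factor of B cells and dendritic cells, rose at both (1.06 and 2.30). *Jak2*, a kinase of that receptor named after its values were seen, was the third to rise in the joint (1.14). *Socs1*, an inhibitor of IFN-γ signalling named after its values were seen, was at 18.9 to 22.8 CPM in joint nonmigrated and 88.4 to 107.8 CPM in skin nonmigrated cells. It rose in joint migrated cells (1.03) and fell in skin migrated cells (-1.48), and the difference between sites was 2.51 (SE 0.163, edgeR adjusted *P* = 7.99e-05). *Ifng* itself, also outside the rule for named genes, was at 9.96 to 26.9 CPM in joint nonmigrated and 13.9 to 87.2 CPM in skin nonmigrated cells, and was not called with migration at either site.

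**Figure D5:**
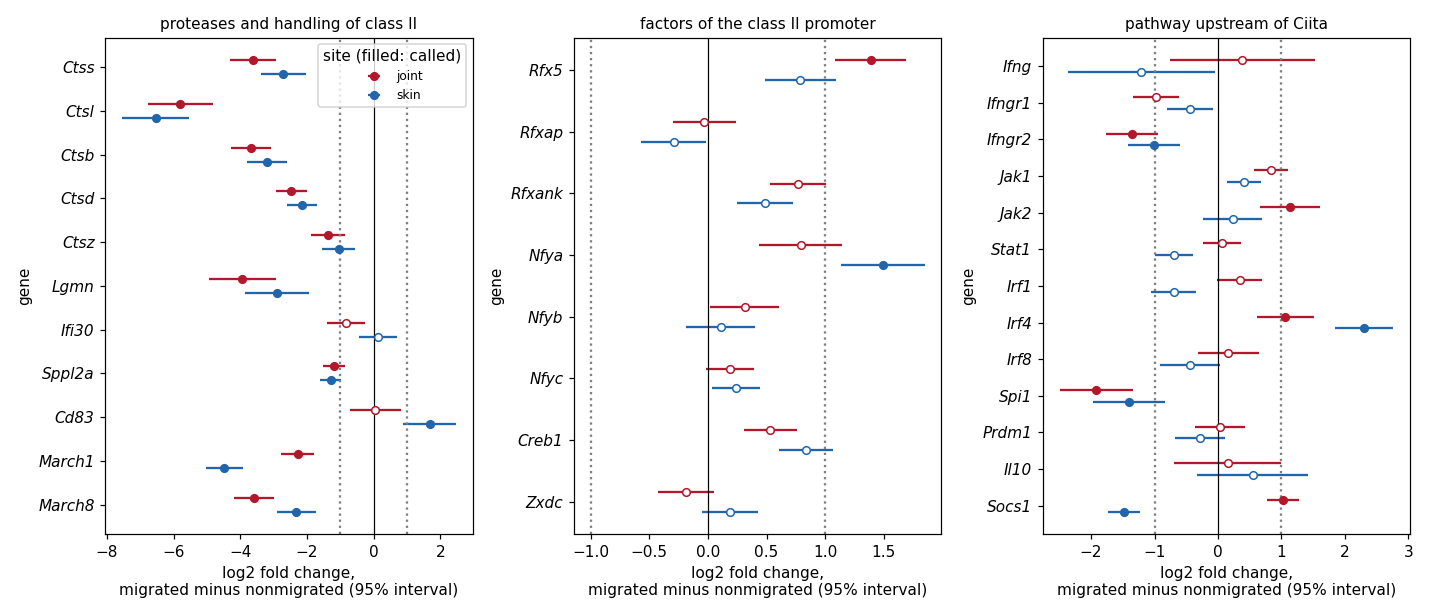
Log2 fold change between migrated and nonmigrated cells (x axes; points with 95% intervals; filled if called) in the joint (red) and skin (blue) for genes of class II processing and turnover (left), factors of the class II promoter (centre) and the pathway upstream of *Ciita* (right). Of the left list 9 genes are filled below 0 at both sites, and *Socs1* lies on opposite sides of 0.

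The remaining class II genes of the locus were also read. *H2-Ea-ps*, annotated as a polymorphic pseudogene for the I-E alpha chain, was at or below 0.32 CPM in all 18 libraries and was not tested. *H2-Eb2*, a second I-E beta gene, was at 2.25, 2.81 and 4.43 CPM in joint nonmigrated and 50.4, 59.0 and 67.02 CPM in joint migrated cells, a rise of 4.15 on the log2 scale (SE 0.298, edgeR adjusted *P* = 9.92e-07). In the skin *H2-Eb2* rose by 3.20 (SE 0.286, edgeR adjusted *P* = 4.01e-06), from 4.40 to 8.60 CPM to 60.5 to 75.2 CPM. Its direction was opposite to that of *H2-Eb1* in the joint, a gene with which it shares 78.8% identity over 770 aligned bases and no identical run longer than 44 bases. Inflamed migrated and steady-state LN cells differed in *H2-Eb2* by less than the fold limit (-0.48 for the joint and 0.24 for the skin).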

How the data were processed

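For the 4 inflamed groups, live CD45+ singlets positive for red Kaede were taken by flow cytometry. The methods do not tie a sort for Kaede to the steady-state libraries. Paired reads of 100 bases were sequenced. The authors checked reads with FastQC, trimmed them with Trim-Galore!, aligned them with TopHat2 to mm10 with Ensembl release 87 and made raw counts per gene with HTSeq under default settings; these deposited counts are the unit used here. The paper's methods describe a PBS challenge but do not tie it to the steady-state libraries. The table held 49585 genes after 5 summary rows were removed (unfeatured reads were 0.105% to 0.642% of assigned counts), and 49326 matched GENCODE M21 (GRCm38, the assembly of mm10). All 18 columns were used and 0 were left out.

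Counts were tested with edgeR 4.0.16 in R 4.3.3 (quasi-likelihood test, TMM, filterByExpr with a minimum count of 10) over all genes. The 12 inflamed libraries were fitted together (16777 genes), as were the 12 LN libraries (17107 genes). *P* values were adjusted by Benjamini-Hochberg over the genes of a comparison. Calls needed both an adjusted *P* below 0.05 and a log2 fold change of absolute size over 1, the threshold in the study's methods, which used DESeq2. All 10 members passed the filter in both fits. Intervals are 95% intervals of the fitted difference. A count of 3 was taken as the floor, which covers counting error only. Replicate libraries differed by more than sampling noise (chi-square per degree of freedom 14.7 to 117.05).

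Named genes were all members, the other class II genes of the locus, the pathway genes called in the same direction at both sites (or the 3 with the smallest *P* in the joint where fewer were) and the 5 genes most like each of 4 members (some items are not reported here). The members and lists were chosen with earlier results of these data known. Alternatives were DESeq2 1.42.0 (Wald test and size factors), no low-count filter, an adjusted *P* under 0.001, a replicate block, other sets of libraries in the fit, and leaving out each library. A further alternative, lengths from the union of exons, was added after seeing the data. The tests were checked on simulated counts.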

Additional observations from a re-analysis of the deposited data

Results flagged for a closer look

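Changes that differed between joint and skin were found for 3 members. The change from nonmigrated to migrated cells was more positive in the joint for *H2-DMb2* (1.05 on the log2 scale, edgeR adjusted *P* = 0.0137), *H2-Oa* (1.37, edgeR adjusted *P* = 0.0225) and *H2-Ob* (1.67, edgeR adjusted *P* = 0.0209). The change from the steady-state LN to inflamed migrated cells was less negative in the joint for *H2-Ob* (1.78, edgeR adjusted *P* = 0.000426). Both tests use the same migrated libraries. In the second, the skin change also runs between the shallower, differently named libraries and the others. For the first difference 4 of 6 migratory dendritic cell genes (median 2.37) and 3 of 6 conventional dendritic cell genes (median 1.84) were also more positive in the joint, whereas 3 of 8 B cell genes were less positive (median -1.61). For the second all 8 B cell genes were more positive in the joint (median 1.87). The part of these cells in the differences was not tested.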

How the results depend on the processing

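The directions and calls of the members between migrated and nonmigrated joint cells (3 higher, 6 lower) were the same under every alternative run. DESeq2, its size factors and all 18 libraries in 1 fit changed no member's call or direction in any comparison, nor did fitting only the groups compared, which was not run for the 2 site differences. At an adjusted *P* under 0.001, 0 members were called for the joint migrated against skin migrated comparison and 0 for the site difference of the migration change, and *H2-DMa* and *H2-Ob* lost their calls for skin migration; all genes called then fell to 3586 (joint migration, from 5757), 3508 (skin migration, from 5940), 511 (nonmigrated by site, from 2400), 0 (migrated by site, from 191), 20 (site difference of migration, from 1029), 2714 (joint against steady state, from 4143), 246 (steady states, from 665) and 152 (site difference of inflammation, from 1045). For migrated cells by site, 465 genes were called by DESeq2, 327 with no filter and 407 with all 18 libraries. For the site difference of migration, 1729 were called by DESeq2 and 1664 with all 18 libraries, and for that of inflammation 666 with all 18 libraries. The causes were not tested.

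Signs turned only in small differences with no call: with no filter, *H2-Aa* (0.002) and *Ciita* (0.04) between migrated cells. Leaving out 1 library gave *Ciita* -0.10 to 0.45 for skin migration, and, between migrated cells, *Ciita* -0.16 to 0.11, *H2-Aa* -0.138 to 0.089 and *H2-Eb1* -0.222 to 0.026. It gave *H2-Aa* -0.016 to 0.278 for skin against steady state and *H2-DMb2* -0.199 to 0.088 for the site difference of inflammation. Members lower in skin migrated cells then ranged from 2 to 5, members higher in joint than skin nonmigrated cells from 0 to 3, and members called for the site difference of migration from 0 to 3 (higher) and 0 to 4 (lower). All genes called ranged from 58 to 171 (migrated by site; 60 or fewer without skin migrated replicate 1 or any joint migrated library, 63 without skin migrated replicate 3), 1745 to 3720 (nonmigrated by site; highest without skin nonmigrated replicate 3), 582 to 2610 (site difference of migration; lowest and highest without skin nonmigrated replicates 1 and 3, and 595, 614, 640 and 668 without joint nonmigrated replicate 2, joint migrated replicate 2, skin nonmigrated replicate 2 and skin migrated replicate 1) and 695 to 1240 (site difference of inflammation; lowest without skin steady-state replicate 2).

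The labels give no pairing of same-numbered libraries, and the main fits did not treat them as paired. Whether they came from the same mice is not known. Their deviations correlated at 0.021, 0.252 and 0.196 between the joint nonmigrated and migrated groups, and at 0.176, 0.073 and 0.148 in the skin. Between migrated and steady-state groups the values were -0.183 to -0.022. In the skin, and for replicates 2 and 3 in the joint, a nonmigrated library correlated best with its own number. With a replicate block, 5747 genes were called for joint migration and 5834 for skin migration, *H2-DMa* differed by -0.99 between joint migrated and steady-state cells and lost its call, and *Ciita* turned to 0.001 between migrated cells. The block changed no other member's call. Over the union of exons 40 of 60 member levels moved by more than the replicate SD. The inflamed skin libraries were the shallowest, and *H2-Oa* and *H2-Ob* there rest on the fewest counts.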

Other observations

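The genes whose levels most resembled those of 4 members were found by Pearson correlation of log2(CPM + 1) over the 18 libraries among 17962 genes. The 18 points fall into 6 groups, and the 6 inflamed skin libraries are the shallowest, so these values describe group patterns and carry no *P* value. For *H2-Ob* they were *Fcrl1* (0.992), *Ffar1* (0.992), *Map3k19* (0.990), *BC051142* (0.989) and *Bend5* (0.986). For *H2-DMb2* they were *Trim26* (0.988), *Gpr18* (0.987), *Cxcr5* (0.985), *Traf5* (0.984) and *Acsf2* (0.984). For *Cd74* they were *Pld4* (0.956), *Unc93b1* (0.954), *Dnase2a* (0.944), *AA414768* (0.943) and *Nrros* (0.938). For *Ciita* the values were lower, and included *Naa25* (0.907), *Dennd6a* (0.905), *6330537M06Rik* (0.902) and *Nadsyn1* (0.902).

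Among the members themselves, *H2-DMb2* and *H2-Oa* were the closest pair on the same measure (0.996), whereas *H2-DMb2* and *H2-DMb1* ran in opposite directions (-0.54). *Ciita* was closer to *H2-Ob* (0.72) than to *H2-Aa* (0.063).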
